A study of Mus musculus with 5 samples.

Results

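Fibroblast growth factors (FGFs) are secreted ligands that bind receptor tyrosine kinases at the cell surface and switch on the Ras and ERK kinases. In the skin they pass signals between dermis and epidermis, set the timing of the hair cycle and control keratinocyte growth. Sprouty (Spry) and Spred proteins and the phosphatase Dusp6 dampen the same pathway, and ERK signalling induces several of them, so they act as feedback inhibitors. The 32 genes described here were chosen by name from RefSeq, as 20 ligand genes, 5 receptor genes and 7 feedback genes, out of 21523 protein-coding genes of the autosomes and X. The ligand genes include Fgf11, Fgf12 and Fgf14, which were counted there by family name although their products stay in the cell. All 32 lie on autosomes, and all 32 had a position.

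Chromatin came from basal epidermal progenitors of control mice at postnatal day 71, sorted from back skin as Sca1-positive, RFP-high and GFP-negative cells. The mice carried K14-RFP, a reporter of basal keratinocytes, and K10-H2B-GFP, a reporter of suprabasal keratinocytes, and the sort kept cells with the first and without the second. Immunoprecipitation used 2 libraries for H3K27me3, trimethylated histone H3, which is made by Polycomb repressive complex 2 (PRC2), 2 libraries for H2AK119ub, monoubiquitinated histone H2A, which is made by Polycomb repressive complex 1 (PRC1), and 1 input library. All 5 libraries share the control genotype, so the series sets 1 mark beside the other and holds no treated or mutant group. The deposited data are a list of called regions for each mark that gives positions alone. They hold 15102 H3K27me3 regions and 33155 H2AK119ub regions, and no read depth, region height or replicate value, so the spread between libraries is unknown and every value below describes these 2 lists without a test. A gene counted as marked when a called region shared at least 1 bp with its annotated body plus 1 kb on each side. Among genes that mark skin cell types, H3K27me3 was called at 0 of 6 basal epidermal genes (Krt5, Krt14, Trp63, Itga6, Itgb4 and Col17a1), 1 of 3 suprabasal, 3 of 4 fibroblast, 2 of 2 Merkel cell, 2 of 3 immune, 0 of 4 melanocyte and 0 of 2 endothelial genes. H2AK119ub was called at 6 of 6 basal, 3 of 3 suprabasal, 3 of 4 fibroblast and 2 of 2 Merkel cell genes. It was also called at 2 of 3 immune, 3 of 4 melanocyte and 1 of 2 endothelial genes. Over all autosomal protein-coding genes the shares were 25.0% for H3K27me3 and 60.4% for H2AK119ub. The lists hold no expression values, so these counts do not establish the sorted cell type.

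In these lists ligand genes carried H3K27me3 more often than receptor or feedback genes, whereas H2AK119ub was frequent in every role. An H3K27me3 region lay at 18 of the 20 ligand genes (90.0%), 2 of the 5 receptor genes and 2 of the 7 feedback genes, against 25.0% of all 20560 autosomal protein-coding genes. H2AK119ub lay at 16 of the 20 ligand genes, all 5 receptor genes and 6 of the 7 feedback genes, against 60.4% of all genes. Both marks were present at 14 ligand genes, 2 receptor genes and 2 feedback genes, against 21.8% of all genes. H3K27me3 alone was found at 4 genes, each a ligand gene, in a background of 3.26%. H2AK119ub alone was found at 2 ligand, 3 receptor and 4 feedback genes, in a background of 38.6%. Spred1 had neither mark, as did 36.4% of all genes. The receptor and feedback genes thus stood near the background for H3K27me3, and the ligand genes stood above it.

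**Figure D1:**
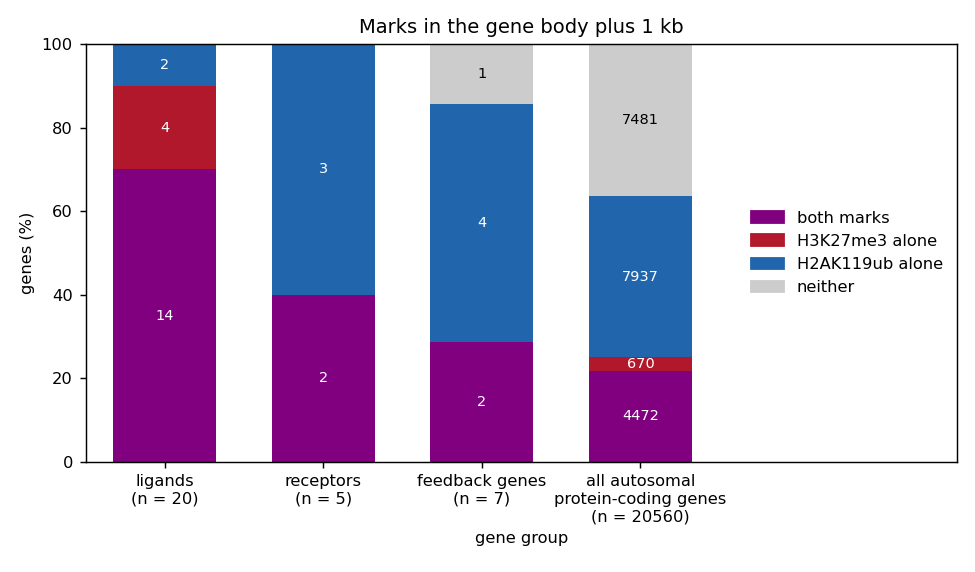
Stacked bars give the percentage of genes (y axis) in each gene group (x axis) with both marks, H3K27me3 alone, H2AK119ub alone or neither in the gene body plus 1 kb, with the number of genes printed in each part. H3K27me3, alone or with H2AK119ub, makes up 18 of the 20 ligand genes, 2 of the 5 receptor genes, 2 of the 7 feedback genes and 25.0% of all autosomal genes.

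Long genes meet a region more easily, so the counts were also made by gene length. Among members shorter than 10 kb, 9 of 11 ligand genes and 0 of 3 receptor or feedback genes had H3K27me3, against 18.4% of autosomal genes of that length. From 10 to 50 kb the counts were 3 of 3 ligand genes and 3 of 5 receptor or feedback genes, against 22.2%. At 50 kb or more they were 6 of 6 ligand genes and 1 of 4 receptor or feedback genes, against 40.2%. In the same length order, H2AK119ub lay at 10 of 11, 3 of 3 and 3 of 6 ligand genes. It lay at 3 of 3, 5 of 5 and 3 of 4 receptor or feedback genes, against 50.5%, 62.3% and 72.1%. Ligand genes of 50 kb or more were thus not above the background for H2AK119ub.

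The median share of the gene under H3K27me3 was higher over ligand genes than over receptor or feedback genes. The median share under H2AK119ub was high in every role, but it was lower over ligand genes among those of 10 kb or more. H3K27me3 covered a median of 69.8% of the window over the 20 ligand genes (range 0.0 to 100%), 0.0% over the receptor genes (0.0 to 22.6%) and 0.0% over the feedback genes (0.0 to 100%), beside a median of 0.0% over all autosomal genes. By gene length, the ligand median was 100% below 10 kb, 80.2% from 10 to 50 kb and 6.6% at 50 kb or more. For receptor and feedback genes together it was 0.0%, 22.6% and 0.0% in the same order. Broad H3K27me3 cover was thus not seen at ligand genes of 50 kb or more (range 1.1 to 19.5%). H2AK119ub covered a median of 84.2% over ligand genes (range 0.0 to 100%), 88.4% over receptor genes (70.9 to 100%) and 100% over feedback genes (0.0 to 100%), beside 9.8% over all autosomal genes. In the same length order, its median was 100%, 50.2% and 0.7% over ligand genes. Over receptor and feedback genes together it was 100%, 100% and 69.9%, and over all autosomal genes 3.2%, 16.1% and 6.7%. At 50 kb or more the ranges overlapped (0.0 to 89.4% for ligand genes, 0.0 to 88.4% for receptor and feedback genes). H3K27me3 covered more of the gene than H2AK119ub at 9 ligand genes and at no receptor or feedback gene, in a background of 8.52%. H2AK119ub covered more at 5 ligand genes, at all 5 receptor genes and at 5 of the 7 feedback genes, in a background of 52.6%. The covered lengths depend on the unknown calling threshold of each list and do not compare amounts of the marks.

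**Figure D2:**
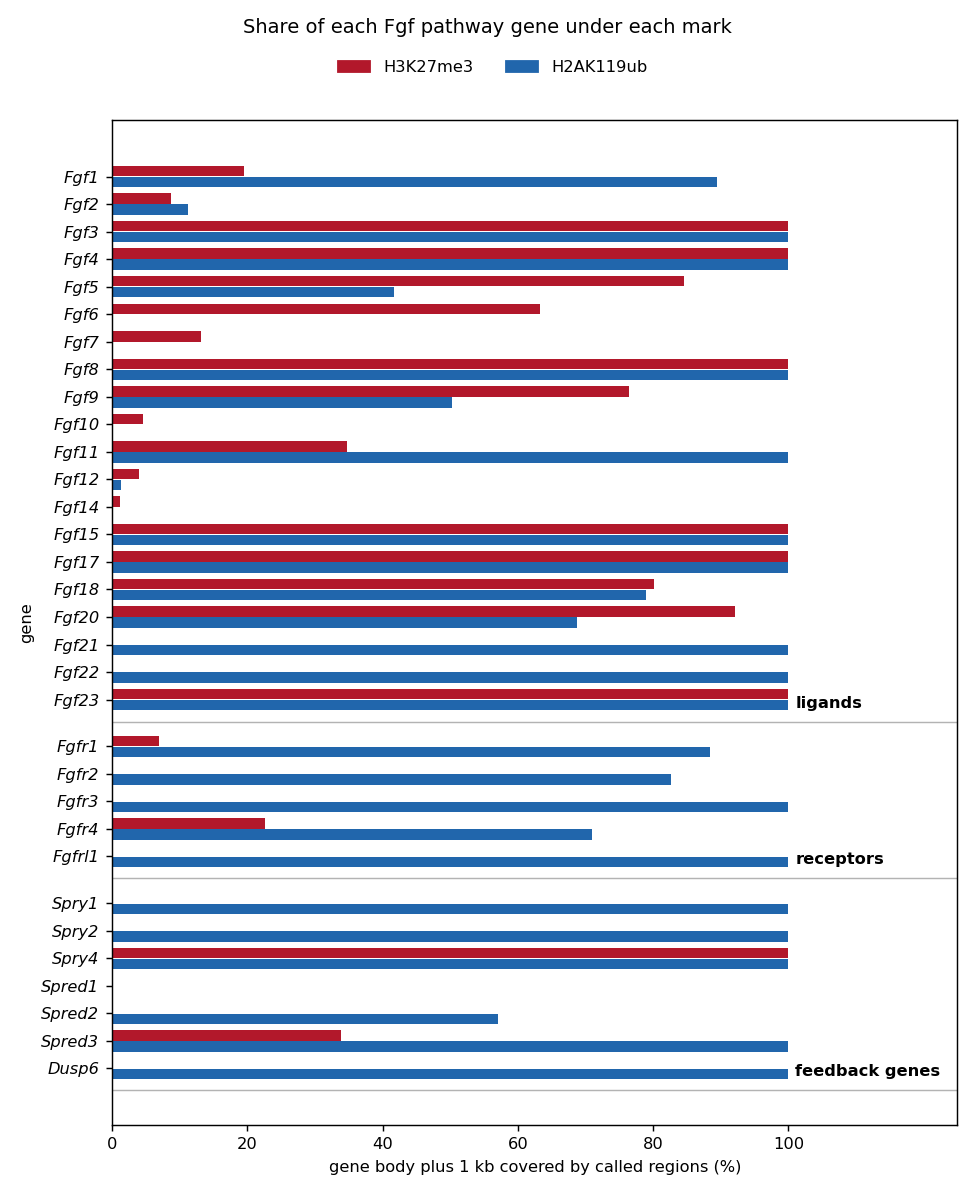
Horizontal bars give the percentage of the gene body plus 1 kb (x axis) under called H3K27me3 regions (upper bar) and H2AK119ub regions (lower bar) for each of the 32 genes (y axis). All 5 receptor genes have the longer H2AK119ub bar, while 6 ligand genes and Spry4 are at 100% for both marks.

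The ligand genes Fgf3, Fgf4, Fgf8, Fgf15, Fgf17 and Fgf23, lay wholly inside regions of both marks, and made up 6 of the 20. Whole cover by H3K27me3 was seen at 3.34% of all autosomal genes, by H2AK119ub at 15.0% and by both at 2.52%. All 6 are shorter than 10 kb, and among the 7278 autosomal genes of that length the shares were 7.54%, 26.9% and 5.73% in the same order, against 6 of the 11 ligand genes of that length under both marks. Fgf3, which acts in inner ear development, Fgf4, which is needed by the early embryo and the limb bud, and Fgf15, an intestinal hormone that limits bile acid synthesis, are neighbours on chromosome 7 with 18 kb between the first pair and 31.3 kb between the second. H3K27me3 was called there as separate regions of 50.8 kb over Fgf3 (chr7:144797740-144848531), 28.8 kb over Fgf4 (chr7:144849573-144878402) and 24.9 kb over Fgf15 (chr7:144887012-144911925). A gap of 1041 bp separated the Fgf3 and Fgf4 regions, and a gap of 8.61 kb, holding 1 further region of 1.14 kb, separated the Fgf4 and Fgf15 regions. H2AK119ub covered the 3 genes in a single region of 99.9 kb (chr7:144820465-144920346). H3K27me3 ended 3.17 kb before the next gene, LTO1, and H2AK119ub reached 5.25 kb into it.

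Fgf23, a bone hormone that lowers blood phosphate, lies 48.2 kb from Fgf6, a factor of skeletal muscle, with no protein-coding gene between them, and the pair differed in H2AK119ub. The H3K27me3 region over Fgf23 was 26.2 kb wide (chr6:127057338-127083513) and the H2AK119ub region was 12.7 kb wide (chr6:127070876-127083533). Their upper ends were 20 bp apart, and H3K27me3 stopped 1.60 kb before the neighbouring gene Tigar. Fgf6 had an 11.0 kb H3K27me3 region (chr6:127018660-127029630) over 63.2% of its window, which began 3.12 kb inside the gene and left the start uncovered. The nearest H2AK119ub region to Fgf6 was the one at Fgf23, 46.2 kb away.

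**Figure D3:**
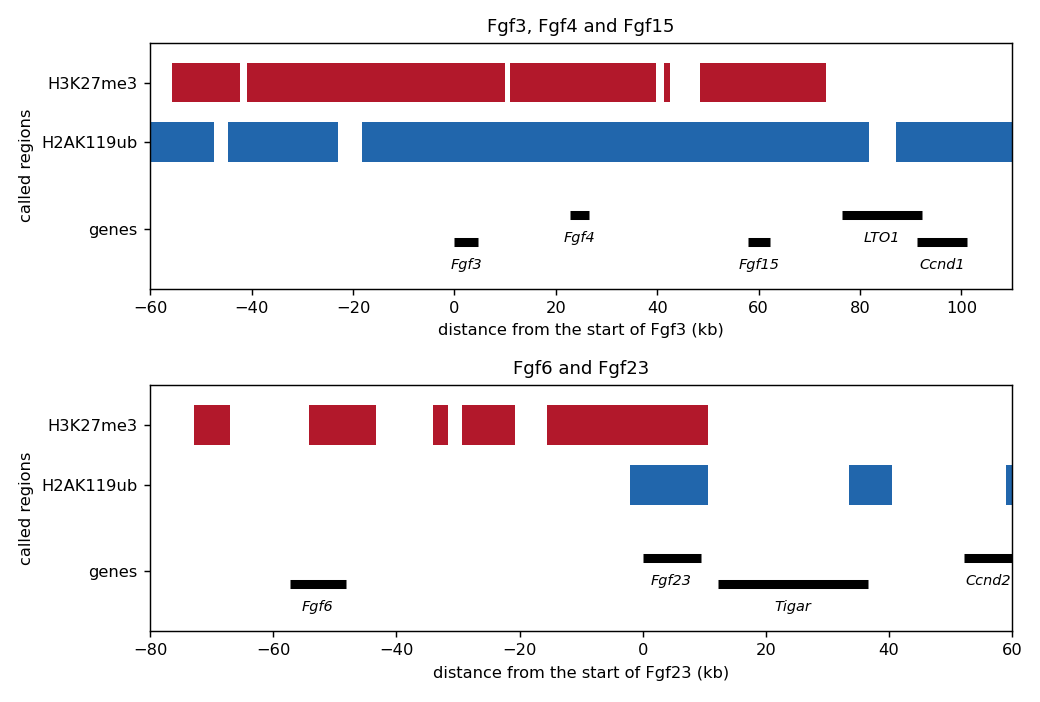
Called H3K27me3 regions (upper row), H2AK119ub regions (middle row) and protein-coding genes (lower row, alternating in height) are drawn by distance in kb from the start of Fgf3 (upper panel) and of Fgf23 (lower panel). A single H2AK119ub region of 99.9 kb spans Fgf3, Fgf4 and Fgf15, and no H2AK119ub region meets Fgf6.

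Fgf8, a signal of the limb bud and the midbrain boundary, had a 20.8 kb H3K27me3 region (chr19:45725679-45746502) inside a 43.4 kb H2AK119ub region. Fgf17, a relative of Fgf8 in the developing brain, had an 11.2 kb H3K27me3 region (chr14:70634612-70645842) inside a 152 kb H2AK119ub region that also met 9 other protein-coding genes. Fgf18, the third gene of that subfamily and a signal of the resting hair follicle, was covered to 80.2% by H3K27me3 and 79.0% by H2AK119ub, with 2 regions of each mark. All 3 genes of the Fgf8 subfamily therefore had both marks over most of the gene.

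Both autosomal genes of the Fgf9 subfamily also had both marks, with the wider cover by H3K27me3. Fgf9, a factor of gonad and lung development, was covered to 76.5% by H3K27me3 and 50.2% by H2AK119ub. Fgf20, a signal of the hair placode, was covered to 92.1% by H3K27me3 (chr8:40278940-40294868) and 68.8% by H2AK119ub (chr8:40281218-40290782), and the second region lay inside the first. Fgf5, which ends hair growth and whose loss gives long angora hair, was covered to 84.5% by H3K27me3 in 2 regions of 31.4 kb and 10.8 kb, and to 41.7% by H2AK119ub in 1 region of 19.4 kb. At Fgf5 and Fgf20 all of the H2AK119ub length in the window was also under H3K27me3, and 49.4% and 74.7% of the H3K27me3 length was also under H2AK119ub.

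The ligands of the Fgf7 subfamily, most of which signal to the epithelial form of Fgfr2, did not share a pattern of marks. Fgf7, also known as keratinocyte growth factor and made by dermal cells, had H3K27me3 alone, in an 8.22 kb region (chr2:126033089-126041310) that ran from 1.57 kb before the start to 6.65 kb after it and covered 13.1% of the window. Fgf10, a mesenchymal signal for limb and lung buds, had H3K27me3 alone, in a 6.08 kb region (chr13:118711277-118717358) that ran from 3.42 kb before the start to 2.66 kb after it and covered 4.6%. The nearest H2AK119ub region lay 210 kb from Fgf7 and 617 kb from Fgf10. Fgf22, which is expressed in skin and organises synapses in the brain, had H2AK119ub alone, in an 18.5 kb region (chr10:79747876-79766348) over the whole window that also met Rnf126. The nearest H3K27me3 region to Fgf22 was 34.7 kb away. Fgf3, placed in the same subfamily, had both marks over its whole length.

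Fgf21, a metabolic hormone of the liver, was the other ligand gene without H3K27me3. It lay in a 49.0 kb H2AK119ub region (chr7:45612411-45661419) shared with 5 other protein-coding genes, and the nearest H3K27me3 region was 83.0 kb away. The endocrine ligands Fgf15 and Fgf23 had both marks, so these 3 hormone genes did not share a pattern.

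Fgf1 and Fgf2, ligands without a classical secretion signal, had both marks over a minor part of the gene for H3K27me3. Fgf2, a mitogen for melanocytes and fibroblasts, had H3K27me3 over 14.3 kb (chr3:37338678-37352991) and H2AK119ub over 15 kb (chr3:37339667-37354622) around its start, covering 8.7% and 11.2% of the window. Fgf1, which binds all the FGF receptors, had 4 H3K27me3 regions over 19.5% and 6 H2AK119ub regions over 89.4% of its window. Every region at Fgf1 also met Arhgap26, whose annotation overlaps the Fgf1 locus on chromosome 18, so the marks cannot be assigned to Fgf1 alone.

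The intracellular FGF genes Fgf11, Fgf12 and Fgf14, whose products stay in the cell and bind voltage-gated sodium channels, each had H3K27me3 over at least 1 start and over a minor part of the window, and differed in H2AK119ub. Fgf11 had a 3.09 kb H3K27me3 region (chr11:69800386-69803474) over its start, or 34.8% of its window, and lay wholly inside a 48.2 kb H2AK119ub region that met 4 other genes. Fgf12, with an annotated span of 595 kb, had 3 H3K27me3 regions over 4.0% and 2 H2AK119ub regions over 1.3% of its window. Of its 4 annotated starts, the 3 inner ones were under both marks and the outermost one was under neither, 186 kb from the nearest H3K27me3 region and 81.3 kb from the nearest H2AK119ub region. Fgf14, with a span of 703 kb, had H3K27me3 alone in 2 regions over 1.1% of its window. One of them, 3.28 kb wide (chr14:124190830-124194109), covered its annotated inner start, and the other, 4.71 kb wide (chr14:124673617-124678326), covered the 5′ end of the annotated gene.

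Receptor genes had broad H2AK119ub and little H3K27me3. Fgfr2, the receptor for Fgf7 and Fgf10 in its epithelial form, had 6 H2AK119ub regions over 82.7% of its window, including a 35.0 kb region over the start (chr7:130258606-130293632), and its nearest H3K27me3 region was 511 kb away. Fgfr3, a receptor of epidermis and cartilage, lay inside a 79.5 kb H2AK119ub region (chr5:33665119-33744632) that also met Letm1 and Tacc3, with the nearest H3K27me3 region 154 kb away. Fgfrl1, a receptor-like protein without a kinase domain, lay inside a 30.6 kb H2AK119ub region (chr5:108689462-108720025), with H3K27me3 20.4 kb away. These 3 receptor genes had no H3K27me3 region in the window.

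Fgfr1 and Fgfr4 had H3K27me3 at 1 end, inside H2AK119ub. Fgfr1, a receptor widely used in mesenchymal cells, had an 11.6 kb H3K27me3 region across its lower-coordinate end (chr8:25510312-25521909) over 7.0% of the window, and 3 H2AK119ub regions over 88.4%. Fgfr4, which controls bile acid synthesis in the liver, had a 4.81 kb H3K27me3 region over its start (chr13:55151068-55155879), or 22.6% of the window, and 2 H2AK119ub regions over 70.9%. At both genes 100% of the H3K27me3 length in the window was also under H2AK119ub.

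Most feedback genes had H2AK119ub alone. Spry1 and Spry2, inhibitors of Ras and ERK activation, lay wholly inside H2AK119ub regions of 35.1 kb (chr3:37628049-37663188) and 15.2 kb (chr14:105887656-105902845), with the nearest H3K27me3 region 287 kb and 388 kb away. Dusp6, the phosphatase that inactivates ERK, lay wholly inside a 38.8 kb H2AK119ub region (chr10:99232871-99271653), with H3K27me3 169 kb away. Spred2 had 3 H2AK119ub regions over 57.1% of its window, the first of which began 0.533 kb after the start, and no H3K27me3.

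Spry4, another Sprouty inhibitor, was the feedback gene with whole cover by both marks, its H3K27me3 region being 50.2 kb wide and its H2AK119ub region 55.6 kb wide, on chromosome 18. Both regions also met Arhgap26, whose annotated body lies 0.269 kb from the upper-coordinate end of Spry4. Spred3, a member of the Spred family, lay inside a 46.4 kb H2AK119ub region that met 4 other genes and had H3K27me3 regions of 3.11 kb and 4.66 kb at its ends, each shared with a neighbouring gene. Spred1, which recruits neurofibromin to switch off Ras, had neither mark, and its nearest H2AK119ub region ended 1.04 kb before the start, just outside the window of 1 kb. The nearest H3K27me3 region to Spred1 was 52.2 kb away.

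Regions shared with a neighbour cannot be assigned to 1 gene. Of the 18 ligand genes with H3K27me3, 15 (83.3%) had a region that met no other protein-coding gene, the exceptions being Fgf1, Fgf7 and Fgf17, beside 77.3% of all marked autosomal genes. Of the 16 ligand genes with H2AK119ub, 7 (43.8%) had such a region, beside 61.9% of all marked autosomal genes. For H3K27me3 the counts were 2 of 2 receptor genes and 0 of 2 feedback genes, and for H2AK119ub they were 4 of 5 receptor genes and 4 of 6 feedback genes. The widest H3K27me3 region per marked gene had a median of 18 kb at the 18 ligand genes and 8.21 kb at the 4 receptor and feedback genes, beside 11.4 kb at the 5142 marked autosomal genes. The widest H2AK119ub region per marked gene had a median of 33.0 kb at ligand genes and 35.1 kb at receptor and feedback genes, beside 20.1 kb at all 12409 marked autosomal genes. These medians count genes and not separate regions. The 99.9 kb H2AK119ub region enters the ligand median once each for Fgf3, Fgf4 and Fgf15, which raises it.

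The same division by role was seen at gene starts, for the 25 members with a start in the promoter table. H3K27me3 lay over a start of 12 of 15 ligand genes, 1 of 4 receptor genes and 0 of 6 feedback genes, against 16.6% of 16457 autosomal genes. H2AK119ub lay over a start of 11 of 15 ligand genes, 4 of 4 receptor genes and 4 of 6 feedback genes, against 38.1%. Fgf1, Fgf8, Fgf15, Fgf17, Fgf20, Fgfr1 and Spry4 were not part of these counts. Spry4, Fgf8, Fgf15 and Fgf17 lay wholly under both marks, so any start within their bodies is also under both. The count of 0 feedback genes thus leaves out Spry4. The receptor count leaves out Fgfr1, which had H3K27me3 across its lower-coordinate end.

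**Figure D4:**
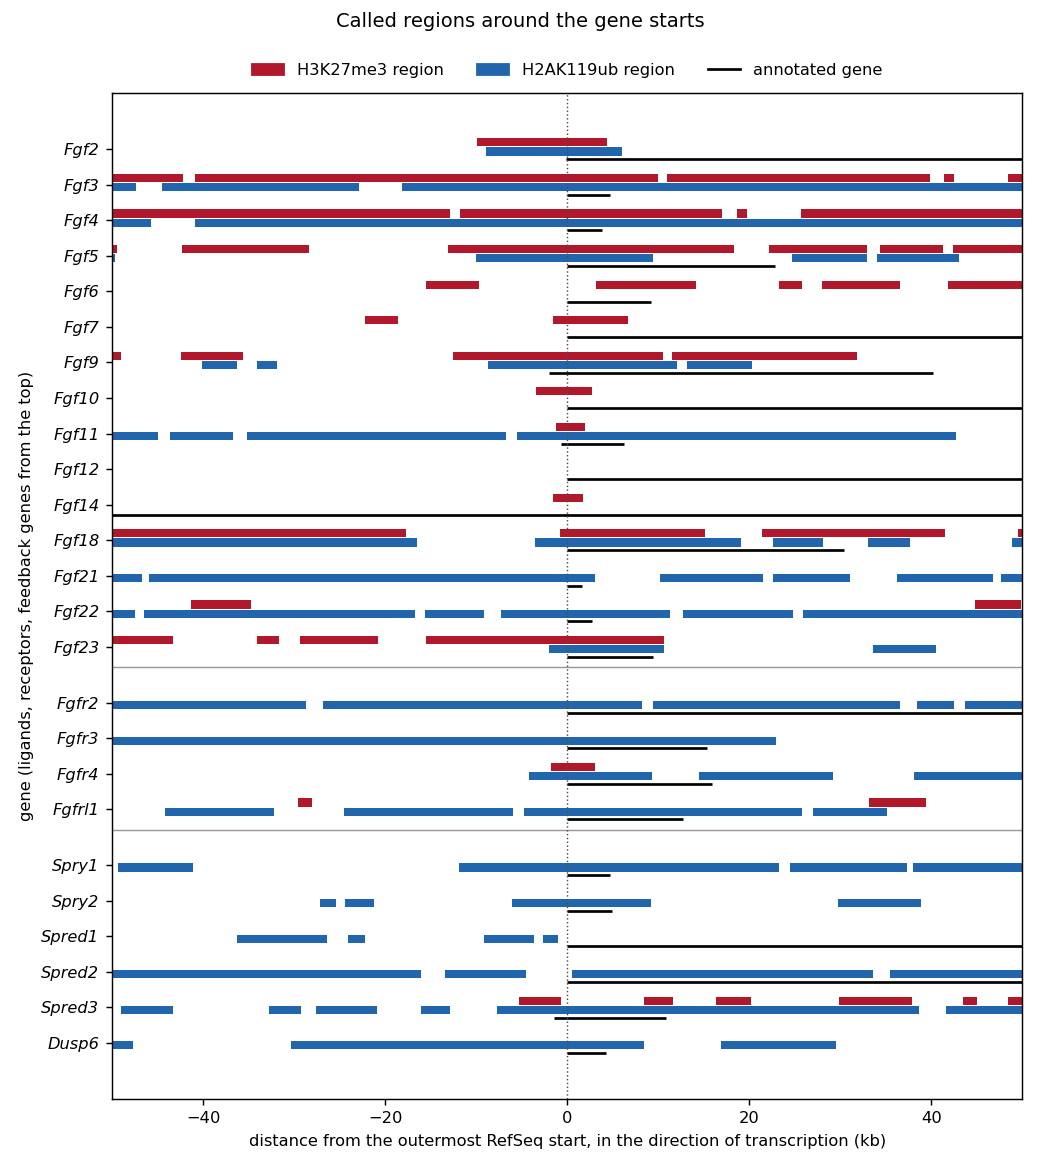
H3K27me3 regions (upper bars), H2AK119ub regions (lower bars) and the annotated gene (black line) are drawn for 25 genes by distance in kb from the outermost start in the promoter table, in the direction of transcription. H3K27me3 crosses the start at most ligand genes, and Fgfr4 is the only receptor or feedback gene drawn at which it does.

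Promoter sequences are shown for the marks seen at the start, since Polycomb regions in mouse cells commonly lie at CpG-rich promoters. Each is the 250 bases before the outermost start in RefSeq (GRCm38.p6), 5′ to 3′ on the strand of the gene, with every CpG, the letters CG, in capitals. Fgf3 stands for a ligand gene under both marks (chr7:144838362-144838611, plus strand), Fgf10 for H3K27me3 alone (chr13:118714449-118714698, plus strand), Fgf21 (chr7:45615491-45615740, minus strand) and Fgf22 (chr10:79754859-79755108, plus strand) for ligand genes with H2AK119ub alone, Fgfr3 (chr5:33721474-33721723, plus strand) for a receptor gene and Dusp6 (chr10:99262981-99263230, plus strand) for a feedback gene with H2AK119ub alone.
Fgf3: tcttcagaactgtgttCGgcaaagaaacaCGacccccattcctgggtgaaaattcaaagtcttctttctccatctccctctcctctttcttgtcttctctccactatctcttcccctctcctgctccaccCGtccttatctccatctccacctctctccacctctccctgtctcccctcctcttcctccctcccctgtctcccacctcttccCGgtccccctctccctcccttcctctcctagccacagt
Fgf10: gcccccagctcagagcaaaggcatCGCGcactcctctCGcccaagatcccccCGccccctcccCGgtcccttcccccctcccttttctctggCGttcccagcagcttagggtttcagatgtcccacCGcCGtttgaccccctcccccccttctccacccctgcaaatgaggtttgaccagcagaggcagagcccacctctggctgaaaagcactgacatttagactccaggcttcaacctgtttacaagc
Fgf21: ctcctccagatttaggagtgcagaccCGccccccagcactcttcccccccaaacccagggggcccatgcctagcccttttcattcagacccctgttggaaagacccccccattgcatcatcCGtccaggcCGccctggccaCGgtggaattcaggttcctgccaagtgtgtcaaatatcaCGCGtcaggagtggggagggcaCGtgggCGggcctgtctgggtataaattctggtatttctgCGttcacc
Fgf22: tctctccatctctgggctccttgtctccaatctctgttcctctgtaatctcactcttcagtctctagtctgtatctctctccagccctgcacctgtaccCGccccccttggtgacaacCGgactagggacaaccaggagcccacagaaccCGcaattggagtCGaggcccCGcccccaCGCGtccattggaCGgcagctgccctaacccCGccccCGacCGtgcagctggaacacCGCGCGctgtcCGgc
Fgfr3: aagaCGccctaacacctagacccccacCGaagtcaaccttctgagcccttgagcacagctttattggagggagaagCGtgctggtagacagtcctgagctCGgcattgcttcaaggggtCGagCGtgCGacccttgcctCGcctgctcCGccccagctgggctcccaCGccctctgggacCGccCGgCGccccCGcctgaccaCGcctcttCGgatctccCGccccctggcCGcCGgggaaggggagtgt
Dusp6: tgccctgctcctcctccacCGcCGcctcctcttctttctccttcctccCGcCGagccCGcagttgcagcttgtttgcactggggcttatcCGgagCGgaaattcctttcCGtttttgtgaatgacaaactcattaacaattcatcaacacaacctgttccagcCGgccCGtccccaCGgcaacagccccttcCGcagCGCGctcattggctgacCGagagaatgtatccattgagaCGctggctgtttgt

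CpG counts overlapped between starts with and without H3K27me3. The window held 4 CpGs at Fgf3 and 8 at Fgf10, both under H3K27me3, and 9 at Fgf21, 15 at Fgf22, 19 at Fgfr3 and 16 at Dusp6, which lacked it. Among other ligand genes under both marks it held 37 CpGs at Fgf18, 24 at Fgf5, 21 at Fgf4 and 20 at Fgf2, but 6 at Fgf23 and 5 at Fgf11. Spred1, with neither mark, had 31 CpGs, Fgfrl1 had 30, and Fgfr2 had 2. The median was 9 CpGs over 15 ligand genes (range 4 to 37), 17 over 4 receptor genes (2 to 30) and 19.5 over 6 feedback genes (6 to 31), beside 10 over 16457 autosomal genes. At least 1 CpG was present in all 25 windows of members and in 93.0% of all windows. Over all autosomal genes the median was 12 CpGs where the start was under both marks, 6 under H3K27me3 alone, 11 under H2AK119ub alone and 9 under neither.

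The other genes of the pathway stood nearer the background for H3K27me3 than the ligand genes did. Of 43 autosomal genes listed for co-receptors, adaptors and kinases, further targets and heparan sulfate enzymes, 8 (18.6%) had H3K27me3 and 34 (79.1%) had H2AK119ub, against the same backgrounds of 25.0% and 60.4%. None of the 19 autosomal adaptors and kinases had H3K27me3, and 13 had H2AK119ub. Those with neither mark, named after their values were seen, included Frs2, the docking protein of the receptors, and the Ras activators Sos1 and Sos2. Both marks were found at Sulf2, which trims heparan sulfate (H3K27me3 up to 28.2 kb wide), Dusp4, a nuclear ERK phosphatase (23.0 kb), Kl, the co-receptor for Fgf23 (14.4 kb), Etv4 (9.23 kb), Etv1 and Flrt2. H3K27me3 alone was found at Sulf1 and at Klb, the co-receptor for Fgf15 and Fgf21. H2AK119ub alone was widest at Ndst1 (102 kb), Flrt1 (80.5 kb), Dusp7 (75.9 kb) and Etv5 (49.9 kb). Il17rd, an FGF antagonist at the membrane, and Dusp5 also had H2AK119ub alone.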

How the data were processed

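Libraries for chromatin immunoprecipitation used 5 ng of DNA each and were read for 75 nt from a single end, per the labels' protocols. For each mark the authors deposited positions of called regions (3 columns, per the file headers) and nothing else. The submitters' processing notes list Bowtie2 2.3.3.1, SAMtools 1.9 and build mm10 without saying how each was used. How regions were called, with what cut-off, and whether the input entered or libraries were pooled is not given in the sources used here. Depth is unknown, and input reads were not analysed here. Calling decides how many regions there are and how wide they come out. A gene without a region may carry the mark below the threshold.

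Starts were read as counted from 0. Gene bodies came from RefSeq GRCm38.p6, the build of mm10, leaving 20560 autosomal protein-coding genes. Rows placed before the first sequenced base of a chromosome (108, Spry3 among them) were left out. Starts came from the RefSeq promoter table, which matched 25 of the 32 members. Overlap counting in Python 3.11.15 was tested on simulated regions, where 0 of 4000 windows differed from a base-by-base recount. No test was made, because a list holds no replicates and genes are not replicates. All members are named, and of the other pathway genes the 4 with the widest region per class, here taken on the autosomes. The members, lists and rules were chosen with earlier results of these data known, and the promoter of Fgf10 and several pathway genes were added after the values had been seen. The alternatives are 8 other settings of the window, overlap, region width, list length and background. Some genes of the pathway list are not reported here.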

Additional observations from a re-analysis of the deposited data

How the results depend on the processing

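Of 87 recomputed counts and medians, 4 could not move, since lists of equal length keep every H3K27me3 region. Of the other 83, 77 stayed within 1.5 times of the values above. With a region required over a RefSeq start, ligand genes with H3K27me3 fell from 18 to 12 and feedback genes with H2AK119ub from 6 to 4. Both falls are exactly at the limit of 1.5 times and were counted as within it. Of the ligand genes lost, all but Fgf6 had no start in the promoter table. These 77 include the H3K27me3 medians of receptor and feedback genes, which stayed at 0.0%. Most of these genes had no H3K27me3 region in the window. Their medians therefore could not rise with 0 bp added, at annotated ends or with regions of at least 5 kb. The 6 that moved came from 2 settings. Requiring a region over a RefSeq start gave 13 members with H3K27me3, 10 with both marks, 1 receptor gene with H3K27me3 and 0 feedback genes with H3K27me3, by construction in part, since 7 of the 32 genes had no start. Keeping regions of at least 5 kb left H3K27me3 at 1 receptor gene (without Fgfr4) and 1 feedback gene (without Spred3), and at 16 ligand genes (without Fgf11 and Fgf14). With 5 kb added to each gene, Spred1 gained H2AK119ub. With lists of equal length, 15102 regions each, H2AK119ub was kept at 26 members (without Fgf12), with a background of 45.4%. With X included, the background was 27.5% for H3K27me3 and 60.9% for H2AK119ub. Leaving out a library was not run, since the lists do not separate the libraries. No paired analysis was possible because the lists carry no replicate and the results come from no test. Read depth, which is unknown, limits what a missing region can show.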

Other observations

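The family members Fgf13 and Fgf16 lie on X and were not among the 32 genes. Fgf16, a factor of the heart, lay wholly inside both marks, in regions 411 kb wide for H3K27me3 and 110 kb wide for H2AK119ub. Fgf13, an intracellular FGF of the Fgf11 group, was covered to 96.9% by H3K27me3 and 69.9% by H2AK119ub, whereas its autosomal relatives Fgf11, Fgf12 and Fgf14 were covered to 34.8%, 4.0% and 1.1% by H3K27me3 and to 100%, 1.3% and 0.0% by H2AK119ub. Such cover was common on X, where H3K27me3 met 79.9% of the 963 protein-coding genes and covered 55.5% of them wholly, H2AK119ub met 72.7% and covered 34.7% wholly, and both marks covered 33.6% wholly. The values of Fgf13 and Fgf16 are therefore near those of X genes in general, whose median cover was 100% by H3K27me3 and 83.7% by H2AK119ub.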
